A study of Mus musculus with 42 samples.

Results

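The regions described here were strong HOXC9 binding sites at which neither HOXC6 nor HOXC10 was detected at day 3. They were chosen from the 10000 day 3 HOXC9 binding events with the most ChIP reads on chromosomes 1 to 19 and X, as those with no event of the day 3 HOXC6 list and none of the day 3 HOXC10 list within 100 bp. An event is a position at which a peak caller assigned more reads to the ChIP than to a control library. The rule gave 2775 sites, 27.8% of the 10000 events, out of 74085 HOXC9 events in all, and they are called HOXC9-only sites below. The other 7225 top events comprised 3809 with both HOXC6 and HOXC10, 2797 with HOXC10 alone and 619 with HOXC6 alone.

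The data are ChIP-seq libraries from isogenic mouse embryonic stem cell lines, each carrying 1 tagged Hox gene at the Hprt locus that is switched on by doxycycline (Dox). Embryoid bodies (EBs) were patterned towards spinal motor neurons with retinoic acid and the smoothened agonist SAG from the start, Dox was added on day 2, and cells were collected on day 3 (24 h of Dox) or day 4 (48 h of Dox). HOXC6, HOXC8, HOXC9, HOXC10, HOXA9, HOXD9, HOXC13 and 4 chimeras of HOXC10 and HOXC13 were assayed at day 3, and HOXC6, HOXC9 and HOXC10 at day 4. HOXC6 and HOXC9 were also assayed in EBs that received no patterning signals (12 h of Dox). The cofactor MEIS was assayed at day 3 in lines induced for HOXC9 (iHoxc9), HOXC10 (iHoxc10) or HOXC6 (iHoxc6), which carried V5 tags, and the cofactor PBX at day 4 in the first 2 of these inductions. All HOX factors were therefore expressed from single-copy transgenes, and the patterned cells were of rostral identity. HOX proteins were mostly pulled down by Flag, whereas HA was used in the second HOXA9, HOXD9 and HOXC13 libraries, and the first day 3 HOXC10 library came from a V5-tagged line. The Hoxc13 gene was the human one.

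Hox genes encode homeodomain transcription factors that give cells their position along the body axis, and they lie in clusters in the order in which they act. HOXC6 and HOXC8 are central factors of brachial to upper thoracic levels. HOXC9 and its paralogs HOXA9 and HOXD9 mark thoracic levels, HOXC10 is a lumbar factor, and HOXC13 is the most posterior. All recognise short A/T-rich words, TAAT being typical of central factors and TTTAT of posterior ones. MEIS and PBX are homeodomain cofactors of the TALE class that bind beside Hox proteins.

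The 5 HOXC9-only sites with the most HOXC9 reads are printed to show the DNA under the strongest binding, each as 101 bases of the plus strand of mm10 centred on the event, with TTTAT or its reverse complement ATAAA in capitals.
Rgs4 site, chr1:169714905-169715005: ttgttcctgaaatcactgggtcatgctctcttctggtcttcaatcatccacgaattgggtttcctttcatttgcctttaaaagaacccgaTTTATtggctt
Itga4 site, chr2:79206571-79206671: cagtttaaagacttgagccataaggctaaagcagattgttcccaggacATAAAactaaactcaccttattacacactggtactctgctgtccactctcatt
Tnn site, chr1:160136944-160137044: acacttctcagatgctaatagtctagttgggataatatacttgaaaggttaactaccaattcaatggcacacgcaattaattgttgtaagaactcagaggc
Hormad2 site, chr11:4472675-4472775: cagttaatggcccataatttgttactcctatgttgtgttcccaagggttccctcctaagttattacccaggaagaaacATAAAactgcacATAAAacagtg
Cd180 site, chr13:102851252-102851352: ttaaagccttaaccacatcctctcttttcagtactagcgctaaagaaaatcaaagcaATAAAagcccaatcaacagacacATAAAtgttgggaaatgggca
Each site is called by the protein-coding gene with the nearest transcription start site (TSS). The Rgs4, Itga4 and Hormad2 sites lay outside annotated genes, 32.7 kb, 48.8 kb and 31.6 kb from those TSSs. The Tnn site lay in an intron of Tnn, 16.6 kb from its TSS, and the Cd180 site in an intron of Mast4, 158 kb from the TSS of Cd180. In the Hormad2 and Cd180 sites the capitals mark 2 copies of the word, in the Rgs4 and Itga4 sites 1 copy, and the Tnn site had none within 50 bp.

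The 3 sites below represent classes taken up later, namely the strongest site with events of HOXA9, HOXD9 and HOXC13, the strongest without an event in any other list, and the strongest within 1 kb of a protein-coding TSS.
Ppp4r2 site, chr6:100959776-100959876: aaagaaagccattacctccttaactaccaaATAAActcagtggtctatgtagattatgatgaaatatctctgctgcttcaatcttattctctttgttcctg
Rev1 site, chr1:38367860-38367960: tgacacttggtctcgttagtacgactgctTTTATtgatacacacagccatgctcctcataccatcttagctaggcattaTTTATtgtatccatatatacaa
Hsdl2 site, chr4:59580544-59580644: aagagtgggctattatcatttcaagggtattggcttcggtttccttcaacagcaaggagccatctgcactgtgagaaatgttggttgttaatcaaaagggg
The Ppp4r2 site was intergenic, 126 kb from that TSS. The Rev1 site lay in an intron of Aff3, 238 kb from the TSS of Rev1, and held 2 copies of TTTAT. The Hsdl2 site was intergenic, 0.969 kb from the TSS, and held no TTTAT.

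Depth and enrichment bear on every share given here. The 21 event lists drew on 40 libraries, each of 5.04 to 32.9 M reads, of which a fraction of 0.008 to 0.527 was assigned to signal. The HOXC9 list pooled 52.4 M reads with a signal fraction of 0.284. The lists that defined the absence were sparser, with 17900 events from 34.1 M reads at a signal fraction of 0.075 for HOXC6 and 26873 events from 45.0 M reads at 0.097 for HOXC10, of whose 3 libraries 1 had 5.04 M reads at 0.017. A missing event is therefore an event not called at that enrichment. Lists of 2 or more libraries pool them, and the MEIS and PBX lists rest on 1 library each, so no error between differentiations was computed, and the 95% Wilson intervals below cover counting of sites only. The day 3 lists of HOXC6, HOXC9, HOXC10, HOXA9, HOXD9 and HOXC13 all give a control of 20.6 M reads in their headers, so they appear to share 1 control library, which is identified only by that total.

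The values that chose the sites are given as a description. The median HOXC9 read count was 452 at HOXC9-only sites (quartiles 370 and 613, highest 4750.4), 484 at sites with HOXC6 alone, 496 with HOXC10 alone and 605 with both. HOXC9-only sites thus lay towards the weaker end of the top list, and they made up 115 of its first 1000 events and 381 of its last 1000. The last event kept and the first left out both had 316.4 reads, a count shared by 5 events. On the side of distance, 58 sites had a HOXC6 or HOXC10 event past 100 and up to 110 bp away, and 70 events lost their place to one past 90 and up to 100 bp away. At 329 sites (11.9%) such an event lay past 100 and up to 200 bp away. The median site was 15.0 kb from the nearest event of either factor.

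HOXC10 and HOXC6 were also measured in libraries that the rule did not use. At day 4 a HOXC10 event lay within 100 bp of 313 HOXC9-only sites (11.3%, upper bound 12.5), against 51.9% of all top HOXC9 events, 65.5% of those with HOXC10 alone and 76.7% of those with both. The sites without HOXC10 at day 3 therefore mostly lacked an event of it after 48 h of Dox as well, in a list of 22027 events at a signal fraction of 0.051. A day 4 HOXC6 event, from a list of 69297 events, was found at 37.7% (35.9 to 39.5), against 72.9% of all top events and 99.1% of those with both. Where present, its median was 2.07 reads per 1 M aligned reads (RPM) at HOXC9-only sites and 12.8 at sites with both factors, and 4.00% of HOXC9-only sites had a day 4 HOXC6 event among that list's top 10000. In unpatterned EBs a HOXC6 event was found at 6.38% of HOXC9-only sites (5.53 to 7.35), against 16.8% of all top events. None of these HOXC6 or HOXC10 lists held an event at 1573 of the 2775 sites (56.7%, 54.8 to 58.5), against 20.6% of all top events.

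The paralogs HOXA9 and HOXD9 differed at these sites. A HOXA9 event was found at 2089 of them (75.3%, 73.6 to 76.8), against 91.3% of all top HOXC9 events, and a HOXD9 event at 717 (25.8%, 24.2 to 27.5), against 71.0%. At sites with both HOXC6 and HOXC10 the same shares were 99.4% and 96.7%. HOXA9 without HOXD9 was the most common state of the HOXC9-only sites (1408 sites, 50.7%), whereas 9.91% of the other top events were in that state. It was the state of 21.2% of all top events. Both paralogs were present at 681 sites (24.5%), against 70.1% of all top events, and neither at 650 (23.4%), against 7.80%. HOXD9 without HOXA9 was found at 36 sites (1.30%), against 0.860% of all top events. The HOXA9 list held 62916 events at a signal fraction of 0.195, and the HOXD9 list 56400 at 0.157. The part of list length and enrichment in the difference between the paralogs was not tested.

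HOXA9 binding was also weaker where it was found. Its median was 2.28 RPM at HOXC9-only sites with an event, 4.53 at sites with HOXC10 alone and 7.48 at sites with both HOXC6 and HOXC10. Counting only the top 10000 HOXA9 events, 16.9% of HOXC9-only sites (15.6 to 18.4) and 70.6% of the other top events had one. For HOXD9 these shares were 3.71% (3.07 to 4.48) and 55.7%. The top list was also divided into 4 bins of 2500 events by HOXC9 reads. HOXD9 was present at 26.6% of HOXC9-only sites in the bin with the most HOXC9 reads and at 24.3% in the bin with the fewest, and at 92.0% and 84.8% of the other top events in these bins.

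**Figure D1:**
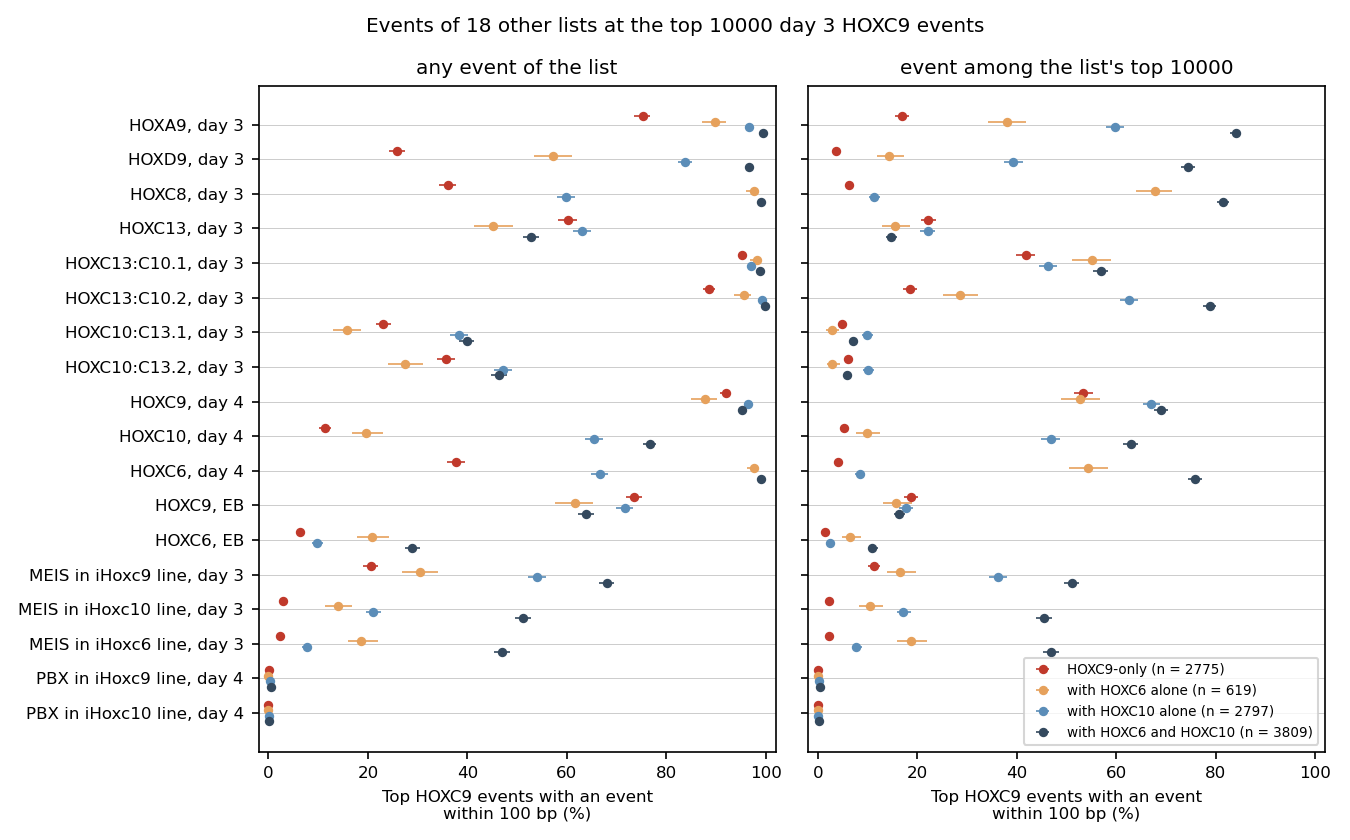
Share of the top 10000 day 3 HOXC9 events with an event of each of 18 other lists within 100 bp (x axis, percent), for HOXC9-only sites and the 3 other classes, with any event counted (left) or only the list's top 10000 (right). Points are shares and bars 95% Wilson intervals; HOXC9-only sites had the lowest share of the 4 classes for HOXA9 and HOXD9 in both panels, and not for HOXC13.

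The central factor HOXC8 was found at 36.0% of HOXC9-only sites (34.2 to 37.8), against 70.5% of all top events, 97.6% of those with HOXC6 alone and 59.8% of those with HOXC10 alone. HOXC8 and day 4 HOXC6 coincided at 737 sites (26.6%), against 65.1% of all top events, and at least 1 of the pair was present at 1307 (47.1%), against 78.3%. At 1383 sites (49.8%, 48.0 to 51.7) no event of HOXC8, day 4 HOXC6 or day 4 HOXC10 was found, against 17.1% of all top events.

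HOXC13, the most posterior factor assayed, was about as common at HOXC9-only sites as at the other top events. It was found at 1670 sites (60.2%, 58.3 to 62.0), against 57.2% of all top events, 63.1% of those with HOXC10 alone, 52.7% with both and 45.2% with HOXC6 alone. The order against the other top events (56.1%) turned at a distance of 50 bp, at which the shares were 50.2% and 50.9%. Among the top 10000 HOXC13 events the shares were 22.2% (20.7 to 23.8) and 17.7%. Within the bins of HOXC9 reads HOXC13 was present at 75.1%, 61.3%, 58.3% and 54.2% of HOXC9-only sites, from most to fewest reads, and at 69.3%, 57.2%, 49.3% and 44.7% of the other top events. The share with HOXC13 thus fell with HOXC9 reads in both, and HOXC9-only sites were the higher class in each bin.

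At least 1 of HOXA9 and HOXC13 was found at 2447 HOXC9-only sites (88.2%), against 95.6% of all top events and 98.5% of the other top events. Both were present at 1312 (47.3%), against 52.9% of all top events. HOXC13 without HOXA9 was found at 358 (12.9%, 11.7 to 14.2), against 4.30% of all top events and 0.997% of the other top events. Neither was found at 328 (11.8%), against 4.36% and 1.49%. Run names in the labels place HOXC13 on the same flow cell as HOXA9 and HOXD9, with no HOXC9 or HOXC10 library among them.

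The chimeras of HOXC10 and HOXC13 exchange the homeodomain and C-terminus, and the second version of each pair moves the junction towards the N-terminus so that a conserved stretch upstream of the homeodomain goes with it. HOXC13:C10.1, which has the N-terminal part of HOXC13 and the homeodomain of HOXC10, was found at 2644 HOXC9-only sites (95.3%, 94.4 to 96.0), against 97.3% of all top events. HOXC13:C10.2, with more of HOXC10, was found at 88.6% (87.3 to 89.7), against 96.3%. Both shares were near those over all top events and slightly below them. The 2 lists are long (99311 and 87315 events, signal fractions 0.43 and 0.355) beside that of HOXC10.

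Counting only top 10000 events separated the versions. HOXC13:C10.1 was then present at 41.8% of HOXC9-only sites (39.9 to 43.6) and HOXC13:C10.2 at 18.6%, and sites with HOXC6 alone had the same order, with 55.1% and 28.6%. The order was turned at sites with HOXC10, with 46.3% and 62.6% where HOXC10 was alone and 56.9% and 78.9% with both factors. Median levels where present followed the same order, with 7.09 and 3.78 RPM at HOXC9-only sites, 9.86 and 4.82 with HOXC6 alone, and 7.79 and 8.98 with HOXC10 alone. HOXC13:C10.1 was present without HOXC13 at 1007 HOXC9-only sites (36.3%), against 40.6% of all top events.

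The reverse chimeras, with the homeodomain of HOXC13, had events at fewer HOXC9-only sites. Their lists held 61482 and 86293 events at signal fractions of 0.145 and 0.192, below those of the other 2 chimeras. The part of list length and enrichment in the lower shares was not tested. HOXC10:C13.1 was found at 23.1% of HOXC9-only sites (21.6 to 24.7), against 33.3% of all top events, and HOXC10:C13.2 at 35.7% (33.9 to 37.5), against 42.4%. Both were less common there than at sites with HOXC10 alone (38.3% and 47.1%) and more common than at sites with HOXC6 alone (15.7% and 27.5%). A HOXC13 event without an event of either reverse chimera was found at 756 HOXC9-only sites (27.2%), against 20.7% of all top events.

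Binding by HOXC9 itself persisted. A day 4 HOXC9 event was found at 2549 sites (91.9%, 90.8 to 92.8), against 94.2% of all top events, and at 53.4% when only the top 10000 day 4 events were counted, against 66.9% of the other top events. By bin of HOXC9 reads, from most to fewest, the day 4 share was 98.1%, 95.7%, 91.2% and 86.9% at HOXC9-only sites and 99.6%, 97.1%, 93.4% and 88.7% at the other top events, so it fell with HOXC9 reads in both.

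In unpatterned EBs HOXC9 was found at 2041 of the HOXC9-only sites (73.5%, 71.9 to 75.2), against 68.6% of all top events, 71.6% of those with HOXC10 alone and 63.9% of those with both. HOXC9-only sites were thus among the classes most often bound by HOXC9 in EBs. The difference from the other top events held in each bin of HOXC9 reads, with 88.0% against 82.2% in the first and 66.3% against 54.8% in the last. It was small among top 10000 EB events, with 18.7% (17.3 to 20.2) against 16.9%. Both day 4 and EB events were present at 1921 sites (69.2%), against 65.9% of all top events, and neither at 106 (3.82%), against 3.11%. Of the sites with an EB event 67.9% had a HOXC13 event, against 38.7% of those without.

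**Figure D2:**
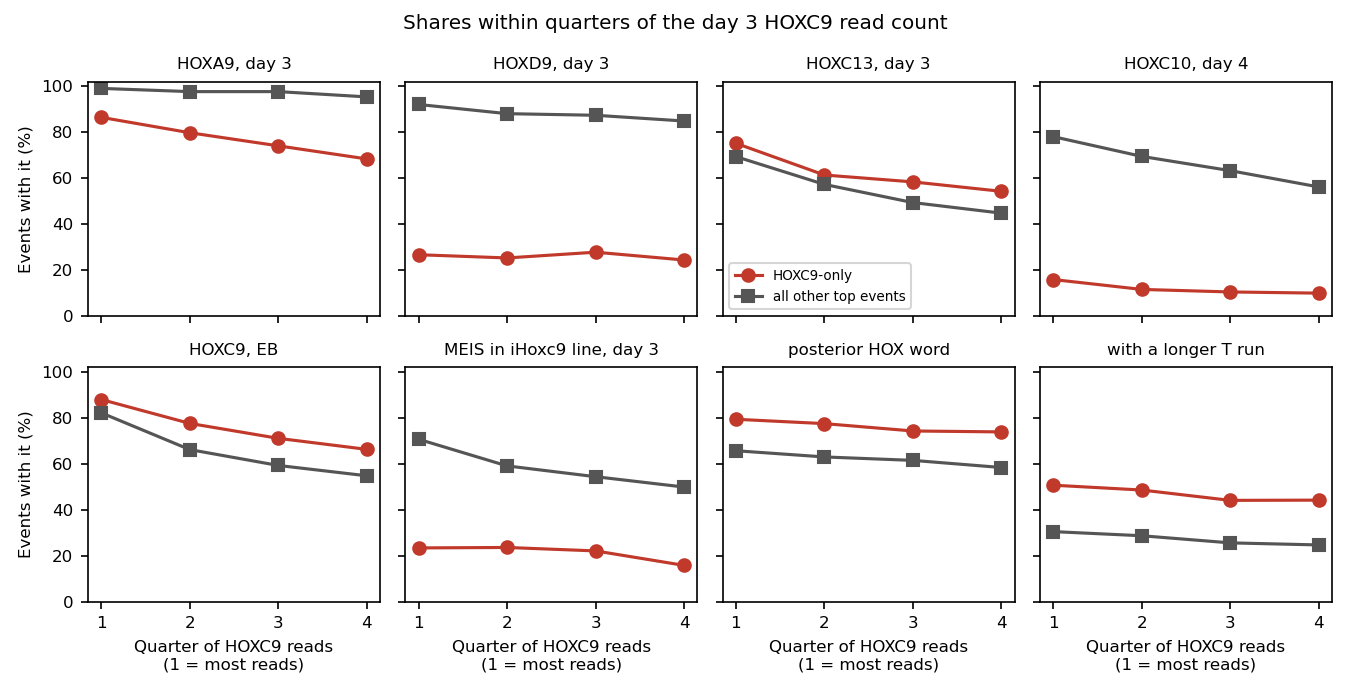
Share of HOXC9-only sites (red) and of all other top HOXC9 events (grey) with each feature (y axis, percent), within 4 bins of 2500 events by day 3 HOXC9 read count (x axis, bin 1 holding the events with most reads). At similar HOXC9 reads the HOXC9-only sites lay below the other events for HOXA9, HOXD9, day 4 HOXC10 and MEIS, and above them for HOXC13, EB HOXC9 and both sequence words.

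The cofactor MEIS was found at few of these sites. A MEIS event in iHoxc9 cells lay within 100 bp of 571 HOXC9-only sites (20.6%, 19.1 to 22.1), against 48.6% of all top events, 53.9% of those with HOXC10 alone and 68.0% of those with both. In iHoxc10 cells the share was 2.95% (2.39 to 3.65), against 27.0%, and in iHoxc6 cells 2.27% (1.78 to 2.89), against 21.8%. MEIS in all 3 lines was present at 41 sites (1.48%), against 17.4% of all top events. MEIS in iHoxc9 cells alone was present at 479 sites (17.3%), against 20.2%, so this state differed less between the classes. Each MEIS list rests on 1 library, and their signal fractions (0.238, 0.119 and 0.077) and lengths (22749, 12982 and 8219 events) fall in the same order as the shares. Their part in that order was not tested.

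HOXC9-only sites with MEIS in iHoxc9 cells differed from those without it in other readouts. HOXD9 was present at 56.7% of the 571 sites with MEIS and at 17.8% of the 2204 without. Day 4 HOXC10 was present at 32.0% and 5.90%, and day 4 HOXC6 at 56.6% and 32.8%. HOXC13 went the other way, with 49.2% and 63.0%, as did EB HOXC9 with 60.6% and 76.9%. The PBX lists were short, at 1165 events in iHoxc9 and 848 in iHoxc10 cells with signal fractions of 0.009 and 0.008. PBX lay at 3 HOXC9-only sites (0.108%) in iHoxc9 and at 0 in iHoxc10 cells, for which the upper interval bound was 0.138%, against 0.280% and 0.0800% of all top events.

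Across the 13 other HOX lists, HOXC9-only sites were shared but with fewer lists. The most frequent numbers of lists with an event were 6 (530 sites, 19.1%) and 7 (531 sites, 19.1%), and for the other top events it was 10 (19.5%). An event in none of the 13 was found at 4 sites (0.144%), and at 0.0400% of all top events. Sites without any other HOX factor, once HOXC9 itself at day 4 and in EBs was set aside, numbered 14 (0.505%), against 0.140% of all top events. HOXC9-only thus describes the absence of called day 3 HOXC6 and HOXC10 events and not of Hox binding.

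**Figure D3:**
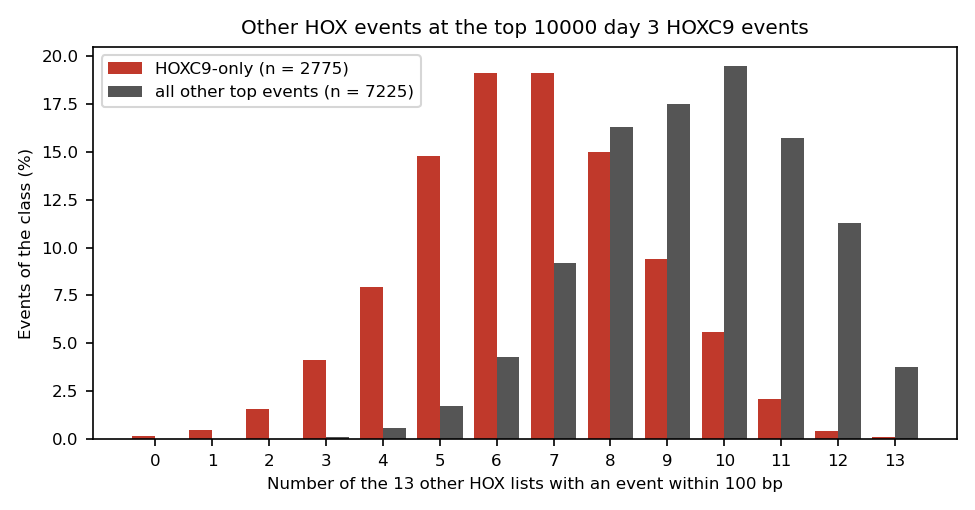
Percent of HOXC9-only sites (red, n = 2775) and of all other top HOXC9 events (grey, n = 7225) by the number of 13 other HOX lists with an event within 100 bp (x axis). HOXC9-only sites centred on 6 and 7 lists and the other events on 10.

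The printed sites show these patterns one by one. At the Rgs4 site, the strongest with 4750.4 HOXC9 reads and 7.5 control reads, HOXC13:C10.1 had 54.8, day 4 HOXC9 61.5 and HOXA9 11.3 RPM, HOXC13 had 1.47, and no HOXD9 or day 4 HOXC10 event was found. By HOXC9 reads it was also the strongest site with a MEIS event in iHoxc9 cells (6.33 RPM) and with an EB HOXC9 event (14.5). The Itga4 site (4126.7 reads) had 12.8 RPM of HOXA9, 7.34 of HOXC13 and 38.4 of EB HOXC9. The Tnn site, without TTTAT, had 49.5 of HOXC13 and 71.3 of HOXC13:C10.1.

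None of these 5 sites had a HOXD9 event. The Hormad2 site had 227 RPM of EB HOXC9 and 55.7 of day 4 HOXC9, beside 2.54 of HOXA9 and 1.70 of day 4 HOXC10. The Cd180 site had 93.5 of EB HOXC9 and no day 4 HOXC6 event. HOXD9 appeared at the Ppp4r2 site with 2.78 RPM, beside 12.9 of HOXA9 and 21.6 of HOXC13.

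The 2 remaining sites mark the edges of the set. The Hsdl2 site, near a promoter, had 11.0 RPM of HOXC8, 13.3 of day 4 HOXC6 and 13.4 of MEIS in iHoxc9 cells, and no HOXC13 event. The Rev1 site (425.3 HOXC9 reads, rank 6658) had no event in any other list within 100 bp, but day 3 HOXC6 and HOXC10 events lay 159 and 151 bp from it, just past the distance of the rule.

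The sequence of HOXC9-only sites was rich in the posterior word. TTTAT on either strand was found within 50 bp of 2099 sites (75.6%, 74.0 to 77.2), against 66.1% of all top HOXC9 events, 74.0% of those with HOXC10 alone, 57.0% with HOXC6 alone and 54.7% with both. The whole HOXC9 list had it at 62.4%, and 33.8% of all adjoining 101-base windows of the genome held it. At least 3 copies were found at 343 HOXC9-only sites (12.4%), at 6.24% of the other top events and at 10.7% of those with HOXC10 alone. TAAT, in contrast, was found at 77.9% of HOXC9-only sites (76.3 to 79.4) and at 76.8% of the other top events. TAAT was found at 77.1% of all top events and at 52.6% of genome windows.

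TTTAT was centred on the events. In bins of 20 bp its share at HOXC9-only sites was highest just before the event (29.6%) and fell to between 11.1% and 12.1% in the bins 100 to 160 bp away, apart from 12.8% in 1 of them. In the bin just before the event the share was 31.3% at sites with HOXC10 alone, 19.5% with HOXC6 alone and 19.8% with both.

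**Figure D4:**
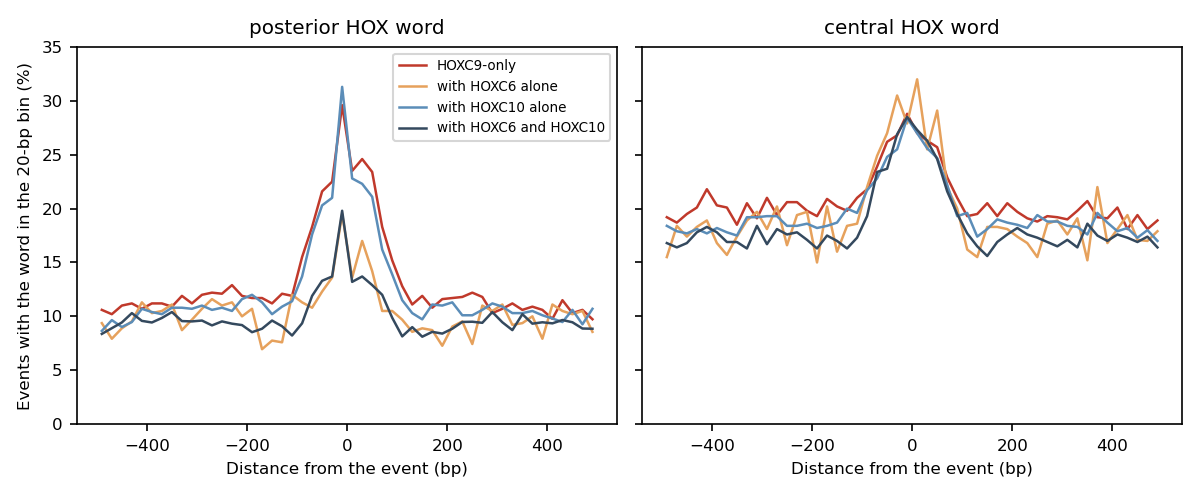
Percent of top HOXC9 events with the posterior word TTTAT (left) or the central word TAAT (right) on either strand in each 20-bp bin (y axis) by distance of the bin from the event (x axis, bp), for the 4 classes. The posterior word separated HOXC9-only sites and sites with HOXC10 alone from those with HOXC6, and the central word gave similar peaks in all classes.

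A comparison of all 2080 words of 6 bases, each counted with its reverse complement, showed how the sequence differed from the other top events. The 5 words with the largest excess at HOXC9-only sites were TTTTAT (46.2% against 27.6%), TTTATG (41.6% against 29.7%), ATTTTA (25.3% against 15.8%), GTTTTA (22.4%, an excess of 9.33 percentage points) and TTTTTA (24.4% against 15.4%). All 5 hold TTTTA or TTTAT, so they overlap and are not separate findings. TTTTAT was found at 32.8% of all top events and in 15.4% of genome windows. TTTTAT was also more common than at sites with HOXC10 alone (39.1%), which matched HOXC9-only sites in TTTAT. It was present at 50.7%, 48.6%, 44.1% and 44.2% of HOXC9-only sites by bin of HOXC9 reads, and at 30.5%, 28.7%, 25.6% and 24.7% of the other top events. The 7-base word TTTTATG, chosen after these values were seen, was found at 22.6% of HOXC9-only sites, 18.4% of those with HOXC10 alone, 7.14% of those with both, 14.7% of all top events and 3.24% of genome windows.

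The 5 words with the largest deficit were ATTGAT (10.3% against 17.4%), CAGATG (9.51% against 15.3%), GATTTA (16.9% against 22.7%), TTGATT (10.6% against 16.0%) and TGATTT (15.5% against 20.8%). Over all top events ATTGAT was found at 15.4% and CAGATG at 13.7%. CAGATG is a form of the E-box bound by bHLH factors. The remaining deficit words overlap one another, so they are not separate findings. Their shared GAT is part of the composite words that PBX-Hox pairs bind. A longer composite word was less frequent too, but it contains some of these deficit words, so its lower share is not a further finding. TGATTTAT was found at 3.50% of HOXC9-only sites (2.87 to 4.25), against 5.61% of all top events, 7.54% of those with HOXC10 alone and 0.605% of genome windows.

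The word of MEIS and the E-box were also less frequent than at all top events. TGACAG was found at 10.3% of HOXC9-only sites (9.26 to 11.5), against 12.0% of all top events and 6.40% of genome windows. It was found at 13.4% of sites with both factors and at 11.4% with HOXC10 alone (10.3 to 12.7). The latter interval overlaps that of HOXC9-only sites. The general E-box CANNTG was found at 41.3% (39.5 to 43.1), against 47.4% of all top events and 41.0% of genome windows, so HOXC9-only sites had it at the frequency of the genome. The HOXC13 word TTTAC was found at 32.6% (30.9 to 34.4), against 29.4% of all top events and 19.1% of genome windows. Sites with HOXC10 alone had it at 35.6% (33.9 to 37.4), so it was not raised at HOXC9-only sites beside them.

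**Figure D5:**
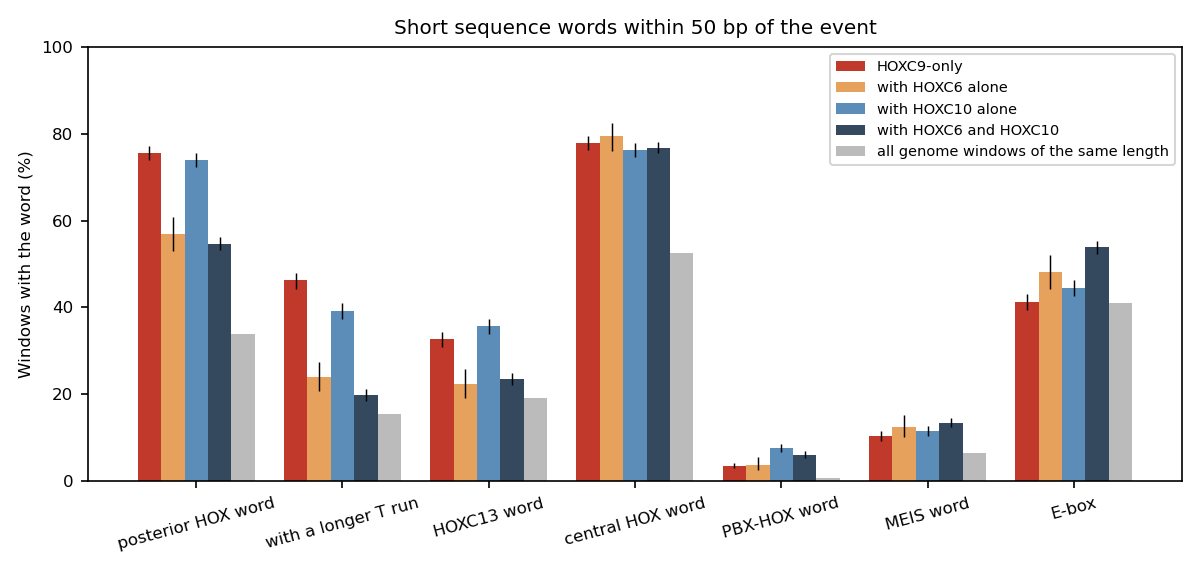
Percent of 101-base windows with each short word on either strand (y axis) named below the axis for the 4 classes of top HOXC9 events and for all windows of the genome (grey). Bars start at 0 and error bars are 95% Wilson intervals; HOXC9-only sites were the class with the largest share of TTTTAT (46.2%) and the smallest of the E-box (41.3%).

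Base composition moved with the classes. The median G+C content of the 101-base windows was 38.6% at HOXC9-only sites, 40.6% at the other top events and 41.8% for the genome as a whole, and the part of base composition in the word shares was not tested. Repeat-masked sequence underlay 9.15% of HOXC9-only sites (8.14 to 10.3), 6.17% of the other top events and 34.3% of the genome.

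The sequence varied with the partner within the HOXC9-only sites. TTTAC was found at 38.6% of sites with a HOXC13 event and at 23.7% of those without, and TTTAT at 81.8% and 66.3%. HOXC8 went with less TTTAT, with 69.5% of sites that had a HOXC8 event and 79.1% of those that had none. By HOXA9 the sites differed little, with TTTAT at 76.0% of sites with it and 74.5% of those without.

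HOXC9-only sites were mostly distant from TSSs, inside genes as well as between them. Within 1 kb of a protein-coding TSS there were 7 of them (0.252%, 0.122 to 0.520), against 0.730% of all top events, 1.51% of the whole HOXC9 list and 1.56% of the bases of the genome. The median distance to a protein-coding TSS was 142 kb, beyond 127 kb for sites with HOXC10 alone and 110 kb for sites with both. By annotation 1362 sites (49.1%) were intergenic and 1341 (48.3%) intronic, against 46.7% and 50.1% of all top events, while 17 fell in UTRs and 6 in coding exons.

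The sites were spread over all 20 chromosomes. They made up between 20.6% of the top HOXC9 events of chromosome 7 and 34.3% of those of the X chromosome, where the number was 49 of 143. Another HOXC9-only site lay within 10 kb of 622 sites (22.4%), and a top HOXC9 event of another class within 10 kb of 654 (23.6%). The median distance to the next HOXC9-only site was 148 kb.

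A protein-coding gene was the nearest one for at least 1 HOXC9-only site in 1621 of 21755 cases (7.45%), and 1018 of these genes had a single site. The gene nearest to the most sites was Flrt2, an adhesion and guidance protein, with 12 sites, though none lay within 100 kb of it. Next came Olfm4, an olfactomedin, and the protocadherin Pcdh20 with 11 each, and Got2, a mitochondrial aminotransferase, BC052040, Robo2 and Robo1 with 10 each. Pcdh9, Tmprss15, the gene of enteropeptidase, and the latrophilin Adgrl3 had 9 each. Each was also nearest to 9 to 28 of the other top HOXC9 events, and the strongest HOXC9-only site lay 128 to 2169 kb from the TSS. Within 100 kb, most HOXC9-only sites of the 10 genes were found at Adgrl3 (8 sites), BC052040 (7 sites) and Robo2 (6 sites).

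Guidance and adhesion genes, through which Hox-programmed motor neurons find and sort their targets, are set here beside all protein-coding genes, of which 7.45% were nearest to a HOXC9-only site and 13.9% to another top HOXC9 event. The 2775 sites and the 7225 other top events differ in number, so the shares of genes for the 2 sets are not on 1 scale. Of the Slit, Robo and netrin genes 10 of 20 were nearest to a site (50.0%) and 12 to another top event, led for the sites by Robo2 and Robo1, receptors of Slit, the netrin receptor Unc5d (6 sites) and the ligand Slit2 (4 sites). Robo2, Robo1, Unc5d and Slit2 were nearest to 28, 18, 5 and 6 other top events. Within 100 kb of these genes lay 6, 5, 4 and 2 HOXC9-only sites. Of the Eph receptors and ephrins 8 of 22 were nearest to a site (36.4%) and 8 to another top event. The sites were led by Epha7 (9 sites), Epha4 (7), the ligand Efnb2 (6) and Epha3 (4), beside 15, 13, 7 and 2 other top events. Within 100 kb of these genes lay 1, 3, 0 and 4 HOXC9-only sites. Of the semaphorin group 7 of 31 were nearest to a site (22.6%) and 11 to another top event (35.5%). The ligand Sema3d and the receptor Nrp1 led with 3 sites each, beside 0 and 12 other top events. The ligands Sema3c and Sema5a had 2 sites each, beside 2 and 4 other top events.

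Teneurins and latrophilins, which pair across cell contacts, had 6 of 8 genes nearest to a site, with 9 sites for Adgrl3 and 8 each for Tenm2, Adgrl2 and Tenm3. Classical cadherins had 12 of 18 (66.7%), with 4 sites each for Cdh18, Cdh2 and Cdh20 and 3 for Cdh8. As many genes of these lists, 6 and 12, were nearest to a top HOXC9 event of the other classes. Having such a gene as the nearest was thus shared by both sets. The nearest gene was not always close. Within 100 kb of Adgrl3, Tenm2, Adgrl2 and Tenm3 lay 8, 10, 3 and 4 HOXC9-only sites. For Cdh18, Cdh2, Cdh20 and Cdh8 the numbers were 2, 2, 0 and 0. The strongest Sema3d site lay in an intron, 59.1 kb from the TSS, with 957.1 reads.

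Of 12 motor neuron identity genes 2 were nearest to a site (16.7%), beside 7.45% of all genes, and 8 (66.7%) were nearest to another top HOXC9 event, beside 13.9%. The pair nearest to a site were Isl1, the LIM-homeodomain factor of motor neurons, with 6 sites, and Lmo4, a LIM-only protein, with 1. The strongest Isl1 site, with 1267.7 reads, was 484 kb from its TSS. Of 14 motor column and pool genes 5 were (35.7%), and 9 (64.3%) for other top events. Foxp1, which defines limb-innervating columns, had 2 sites beside 14 other top events, and Tshz1, Zeb2 and Mecom had 1 each.

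Of the 39 Hox genes 1 was nearest to a site (2.56%) and 14 (35.9%) to another top event. That site fell in a UTR of Hoxc8, 2.37 kb from its TSS, with 322.4 reads. Of 9 genes of the TALE cofactors 4 were nearest to a site (44.4%) and 5 (55.6%) to another top event. Meis2 was nearest to 6 sites, Pbx3 to 3 and Meis1 to 2, beside 10, 13 and 16 other top events. The strongest Meis2 site had 1987.5 reads and lay 258 kb from its TSS.

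Genes of the retinoic acid pathway and of pluripotency were also examined, again beside 7.45% and 13.9% of all genes. Of the retinoic acid pathway genes 4 of 18 were nearest to a site (22.2%) and 8 (44.4%) to another top event. Those near a site were the retinol dehydrogenase Rdh10 and the reductase Dhrs3 with 2 sites each, and the retinoic acid hydroxylases Cyp26b1 and Cyp26a1 with 1 each. Of the 16 pluripotency genes 5 were (31.2%), and 7 (43.8%) for other top events, with 4 HOXC9-only sites for Zfp42, 2 for Dppa4 and 1 each for Klf5 and Sox2. All 4 Zfp42 sites lay within 100 kb of the gene, where 1 other top HOXC9 event was found. No expression was measured in these files, so nearness says nothing of regulation.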

How the data were processed

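ChIP-seq was performed in 42 samples of 23 groups, and 21 groups had event lists. According to the study's methods and the labels, the authors aligned reads to mm10 with Bowtie 1.0.1, keeping uniquely mapping reads, removed duplicates with Picard 2.8.2, and called events with MultiGPS over the pooled libraries of a group at a q-value under 0.001. The deposited lists give, per event, estimated counts of ChIP reads, a scaled control signal, a log2 fold over control and a score that is the log2 of the q-value. Columns of the authors' edgeR comparisons (edgeR 3.22.5), which hold fold changes and q-values between conditions, were not used, nor were the position tracks.

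Events on chromosomes 1 to 19 and X were ranked by estimated ChIP count, ties in file order, and the top 10000 HOXC9 events were divided by HOXC6 and HOXC10 events within 100 bp. Shares have 95% Wilson intervals. Of the HOXC9-only sites with a HOXA9, HOXD9 or HOXC13 event, 78.7%, 74.6% and 68.7% had it at the same base, against 0 to 7.03% for the other lists, so shares are compared between classes of a list. RPM divides an event's count by the list's aligned reads in M. All 74067 deposited HOXC9 sequences were found within 100 bp of their event on GRCm38, and genes are those of GENCODE release 21, with 1 start per gene. An exon, UTR or intron is one of any annotated gene. Groups came from the labels. Python 3.11.15 and numpy 2.4.6 were used, and the functions were tested on simulated data.

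The sites, gene lists and words were chosen with earlier results of these data known. Named sites were the 5 with most reads and the strongest of each class, passing over chromosome 18. Named genes were the 10 nearest to the most sites and up to 4 per list by number of sites. A gene that this rule gave is not reported here. Named words were the 5 with the largest difference each way. Alternatives changed the distance, ranking, list length, word window and TSS set.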

Additional observations from a re-analysis of the deposited data

How the results depend on the processing

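The number of HOXC9-only sites was 1044 among the top 5000 HOXC9 events and 4422 when the HOXC6 and HOXC10 lists were reduced to their top 10000, so it depends on how long those lists are. The number was 3242 at a distance of 50 bp and 2446 at 200 bp. At a distance of 50 bp the shares were 67.0% for HOXA9, 50.2% for HOXC13, 85.1% for day 4 HOXC9, 63.3% for EB HOXC9, 17.8% for MEIS in iHoxc9 cells and 73.5% for TTTAT. At 200 bp they were 80.5%, 66.6%, 94.6%, 78.4%, 18.97% and 77.4%. Among the top 5000 events they were 82.4%, 66.9%, 96.6%, 81.8%, 23.6% and 78.3%. With each other list reduced to its top 10000, the first 5 shares were 16.9%, 22.2%, 53.4%, 18.7% and 11.2%. TTTAT was found at 51.1% within 25 bp and at 91.4% within 100 bp. Sites near a TSS made up 1.51% with the starts of all annotated genes and 2.77% within 5 kb. Against the other top events the direction held for these results under the alternatives run, except for HOXC13 at 50 bp (50.2% against 50.9%). Ranking by q-value left all of these results close to their values.

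No paired analysis was possible because each list of 2 or more libraries pools them and the others rest on 1 library, and for the same reason no library was left out. A site missing from a list was not called at that list's depth and enrichment. Depth was lowest for the MEIS lists, and the signal fraction for PBX.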
